A study of Mus musculus with 6 samples.

Results

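Genes of the respiratory chain and of ATP synthase were followed in the mouse macrophage line RAW264.7, grown alone or together with tumour-derived cells. The members were the protein-coding genes whose symbols begin with Nduf, Sdha to Sdhd, Uqcr, Atp5, mt- or Cox4 to Cox8, together with Cycs and Cyc1. The rule reads names only and found 113 genes of 54532, with 100 in the nuclear genome and all 13 protein-coding genes of the mitochondrial genome. Of these, 106 passed the filter on low counts (94 nuclear and 12 mitochondrial) among 12972 genes tested. The 7 members not tested included mt-Atp8, the tissue forms Cox6b2, Cox7b2, Cox8b and Cox8c, and Ndufa4l2, which was listed with them. The last was a further gene identifier of Atp5o that held 0 counts.

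Wild-type RAW264.7 cells were sequenced in 3 libraries per group, labelled replicates A to C, and had been collected by fluorescence-activated sorting. Control cells were grown alone, and the others spent 48 h with TTJ cells, which lack Tsc2 and came from an angiomyolipoma of mice that model tuberous sclerosis complex. Both cell types were kept in DMEM with fetal bovine serum. Messenger RNA was purified with poly-T beads and read out with random hexamer primers, so transcripts without a poly-A tail are sampled less. Library totals ran from 14329487 to 17358280 counts.

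The chain passes electrons from NADH (complex I) or succinate (complex II) through ubiquinone, complex III and cytochrome c to oxygen at complex IV, and complex V makes ATP from the proton gradient that results. Complexes I, III, IV and V are built from subunits of both genomes, whereas complex II is wholly nuclear. The mitochondrial genes are transcribed as long joint precursors that are cut into single RNAs, and the nuclear genes are transcribed one by one. In macrophages the balance between respiration and glycolysis is known to shift with the activation state.

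Members were lower in the cocultured libraries across all 5 complexes and both genomes, by small amounts. Of 106 members tested, 60 fell (edgeR's quasi-likelihood test, Benjamini-Hochberg adjusted p under 0.05), against 15.2% of all genes tested. A single member was called higher, Cox4i2, where 21.7% of all genes tested were. Its counts are low, and without the cocultured libraries it would not have passed the filter, which left no other direction for a call. A further 45 members did not pass the threshold, and 98 of the 106 fitted log2 changes were below 0. The median log2 change was -0.18 for nuclear members (11.7% lower) and -0.37 for mitochondrial members (22.8% lower), beside 0.00288 for all genes tested. In 66 members every cocultured library lay below every library of cells grown alone, which held for 21.0% of all genes tested, and 1 member showed the opposite order, against 26.1%. The direction was the same in nearly all roles, as the plot of log2 changes by role shows.

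**Figure D1:**
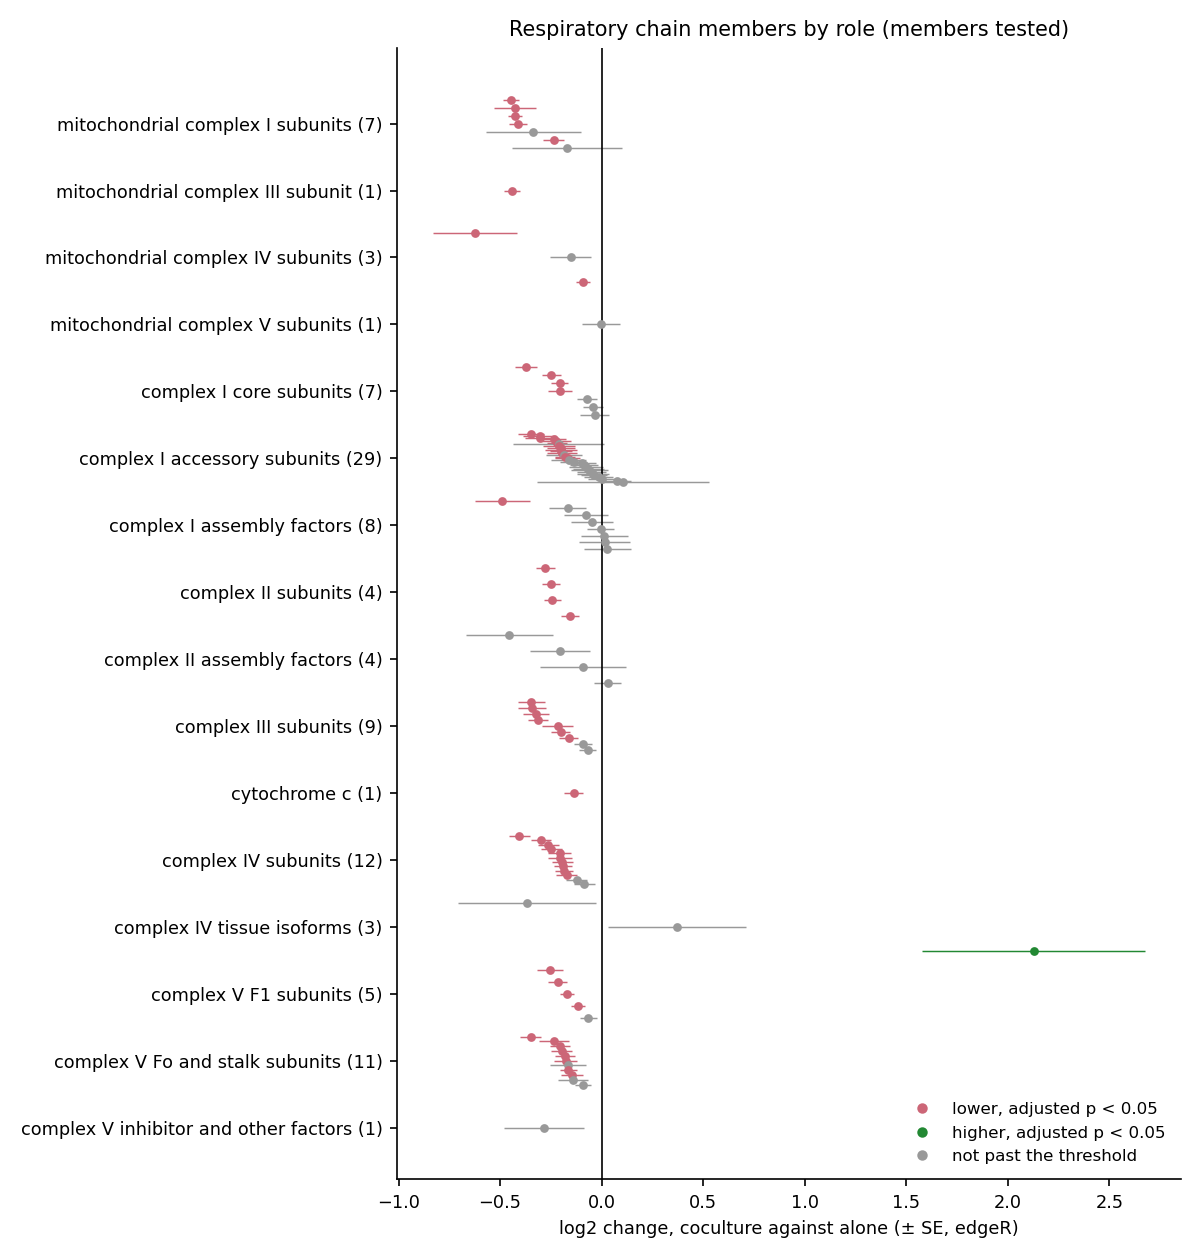
Fitted log2 change of the 106 members tested, coculture against alone, grouped by role, with the number tested in brackets; points are genes, bars are ± SE, and colour marks the edgeR call at adjusted p under 0.05. Of the 77 nuclear subunit genes 75 lie below 0, most assembly factors lie near 0, and Cox4i2 stands apart at 2.13.

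Whether the replicates came from separate cultures is not stated in the labels, and the p-values reflect variation among the libraries sequenced, some or all of which may be technical. Although the cells had been sorted, markers of other cell types differed between the groups. The 10 renal and simple epithelial markers summed to 0 to 0.0600 CPM (counts scaled by TMM library size) alone and 280 to 323 CPM in coculture. In coculture Epcam, Cldn7 and Lhx1 were at 0, and all 6 markers that could be tested were higher. No other call was open to the 6 tested, because cells alone held no count of them beyond 1 of Pax8. The 10 mesenchymal markers summed to 996 to 1056 CPM alone and 1560 to 1619 CPM in coculture, mostly from Vim, at 1015 and 1528 CPM. Col5a1, Timp3 and Cav1 went from 0.0229, 0 and 0.0192 CPM alone to 25.6, 17.9 and 15.2 CPM in coculture, a direction that the filter fixed. Acta2 was not called, Tagln, Col1a1, Col1a2 and Pdgfrb did not pass the filter, and Col3a1 was at 0. Of 10 macrophage markers, 5 were higher and 3 lower, and none was at 0. The 688 genes without a count alone and with at least 10 counts in coculture made up 0.294% ± 0.0172 (SD, n = 3) of cocultured counts and included 0 members. Whether these transcripts came from other cells was not tested, nor was their part in the changes of the members, and in bulk RNA fewer cells of a type and less RNA per cell cannot be told apart.

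The mitochondrial genes gave the larger and the less even change. Together they took 1.501%, 1.57% and 1.67% of all counts in the libraries of cells alone and 1.37%, 1.29% and 1.36% in coculture, or 1.58% ± 0.0872 against 1.34% ± 0.0399 (SD, n = 3). The groups did not overlap. With 3 libraries against 3, the smallest p of an exact permutation test (two-sided) is 0.1, so no test is given. The nuclear members took 1.18% ± 0.0107 and 1.06% ± 0.0168. Because both sums were lower, the ratio of mitochondrial to nuclear counts overlapped between the groups, at 1.34 ± 0.0850 alone and 1.27 ± 0.0575 in coculture.

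mt-Nd1, a membrane-arm subunit of complex I on the mitochondrial chromosome (2751 to 3707 of mm10), read 2323, 2332 and 2508 CPM alone and 1789, 1762 and 1784 CPM in coculture. All cocultured libraries were lower, and mt-Nd1 fell by 0.43 on the log2 scale (SE 0.034, edgeR adjusted p = 1.34e-10), or 25.5%. mt-Nd2, another membrane-arm subunit (3914 to 4951), read 1079, 1090.5 and 1121 CPM alone and 864, 773 and 780.5 CPM in coculture, a fall of 26.5%. mt-Cytb, the cytochrome b of complex III (14145 to 15288), read 2083, 2091 and 2237 CPM alone and 1681, 1522 and 1525 CPM in coculture. It fell by 0.44 (SE 0.039, edgeR adjusted p = 9.91e-10), and the groups did not overlap. mt-Nd5 (11742 to 13565) fell from 1401 ± 107 to 1055 ± 44.3 CPM (SD, n = 3), again without overlap. These 4 genes lay within 24.7% to 26.5% of reduction.

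mt-Co1, the catalytic subunit of complex IV that holds its heme groups (5328 to 6872), was the most abundant member and behaved differently. It read 7353, 7531 and 8108 CPM alone and 7284, 6878 and 7399 CPM in coculture. The groups overlapped, and the change of -0.09 (SE 0.034, edgeR adjusted p = 0.0337) was no longer called in 8 of 17 alternative analyses, where the edgeR or limma adjusted p reached 0.339. Leaving out alone replicate C gave -0.05 (edgeR adjusted p = 0.231), and leaving out cocultured replicate A or B gave -0.11 and -0.07 (adjusted p = 0.0571 and 0.18). Counted per 100 mt-Co1 counts of the same library, which needs no scaling between libraries, mt-Nd1 stood at 31.6, 31.0 and 30.9 alone and at 24.6, 25.6 and 24.1 in coculture. mt-Cytb stood at 27.9 ± 0.385 and 21.9 ± 1.25 (SD, n = 3), mt-Nd2 at 14.3 ± 0.441 and 11.2 ± 0.656, and mt-Nd5 at 18.3 ± 0.773 and 14.7 ± 0.430. None of these 4 ratios overlapped between the groups, so mt-Co1 changed less than these genes. Without mt-Co1, mitochondrial members took 0.819% ± 0.0471 of counts alone and 0.619% ± 0.0186 in coculture.

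Of the remaining mitochondrial members, mt-Nd4 (10167 to 11544) read 684, 833.3 and 846 CPM alone and 675, 654 and 677 CPM in coculture and fell (log2 -0.24, edgeR adjusted p = 0.000907) without overlap. Its ratio to mt-Co1 did overlap, at 10.3 ± 0.891 and 9.31 ± 0.184 counts per 100. mt-Nd6 (13552 to 14070), the only mitochondrial protein gene on the other strand, read 195, 296 and 331 CPM alone and 199, 206 and 208 CPM in coculture. It was called lower (log2 -0.43, edgeR adjusted p = 0.00157), but alone replicate A lay below all cocultured libraries, and neither DESeq2 nor limma called it (adjusted p of 0.123 to 0.126). Without alone replicate C its log2 value was -0.27 and the call stayed. limma did not call mt-Nd4 either (adjusted p of 0.0595 and 0.0602). The end of mt-Nd6 overlaps mt-Nd5, and without a stated strand setting their shared bases cannot be told apart.

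The 2 ribosomal RNAs of the mitochondrial genome, which are no members, lie at the start of the same precursor and did not change alike. mt-Rnr2, the large subunit RNA, fell by 0.61 (SE 0.067, edgeR adjusted p = 5.32e-08), whereas mt-Rnr1, the small subunit RNA, gave 0.06 (SE 0.135, adjusted p = 0.777). The counts of mt-Rnr1 varied, at 1707, 3407 and 3968 alone and 2244, 3354 and 3458 in coculture, with alone replicate A the lowest. Per 100 mt-Rnr1 counts, mt-Rnr2 stood at 302, 213 and 207 alone and at 166, 129 and 145 in coculture, without overlap. Of 22 mitochondrial tRNA genes 10 could be tested, and 6 of them fell while 0 rose, against 15.2% and 21.7% of all genes tested. Some counts were low, such as 7, 6 and 11 for mt-Ts2 in coculture, and mt-Tn was called lower although its groups overlapped. Along the genome, mt-Rnr1 and the stretch from mt-Co1 to mt-Nd4l gave small or uncertain changes, and most genes on either side of that stretch were lower, as the plot of the mitochondrial genes in their order shows.

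**Figure D2:**
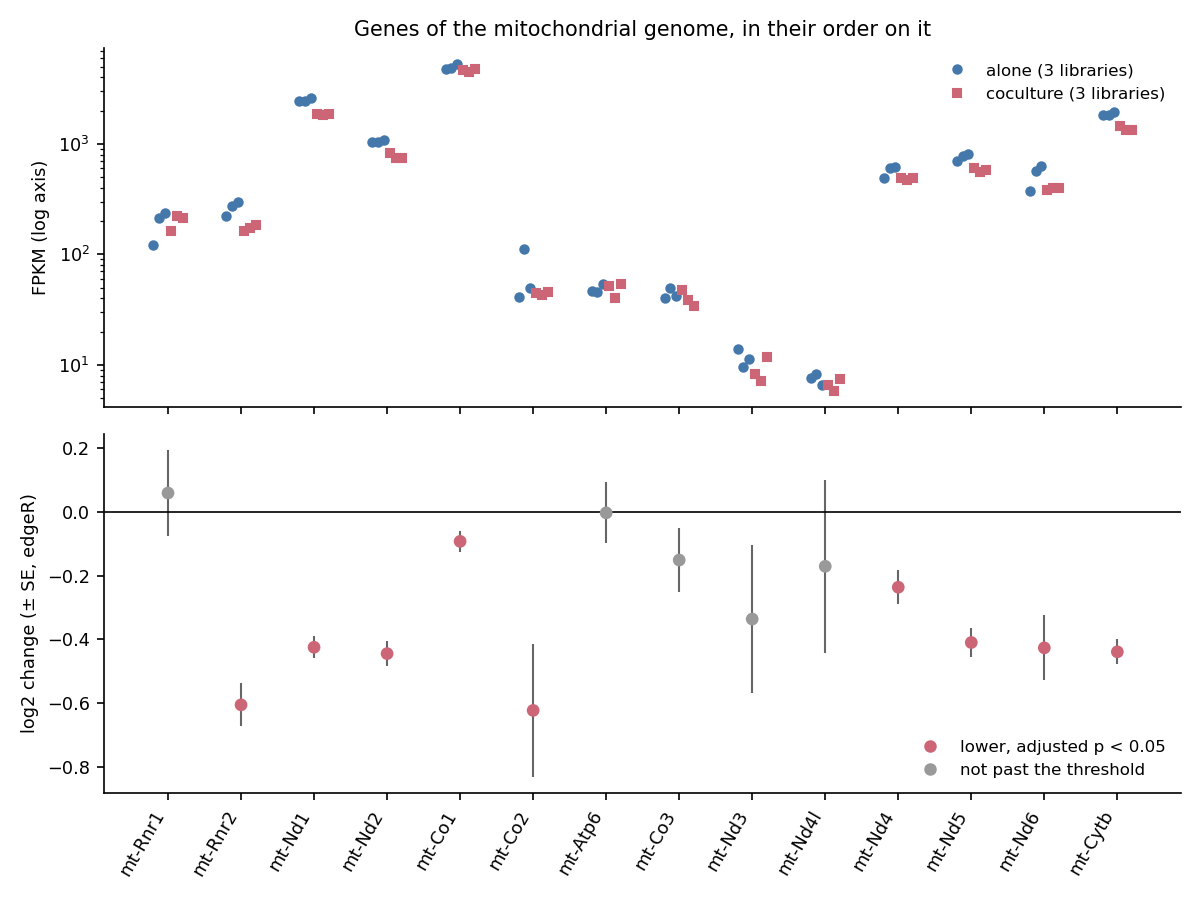
Genes of the mitochondrial genome in their order along it, with 12 members and 2 ribosomal RNAs; the upper panel gives FPKM on a log axis for each library, and the lower panel the edgeR log2 change ± SE. mt-Nd1, mt-Nd2, mt-Nd5 and mt-Cytb lie near -0.43, mt-Co1 at -0.09, and the 5 genes from mt-Co2 to mt-Nd4l have FPKM levels far below the others.

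Levels can be compared between genes on the FPKM scale, which divides by length. In cells alone mt-Co1 stood at 4948 ± 255 FPKM, mt-Nd1 at 2489 ± 109.7, mt-Cytb at 1863 ± 76.0 and mt-Nd2 at 1054 ± 21.2 (SD, n = 3). By contrast mt-Co2, mt-Atp6 and mt-Co3, which lie between mt-Co1 and mt-Nd4, stood at 68.0, 48.8 and 44.2 FPKM, and mt-Nd3 and mt-Nd4l at 11.6 and 7.49 FPKM. These 5 genes are the ones with a near-complete copy among the annotated pseudogenes searched. The search covered a stretch of chromosome 1 and not the rest of the nuclear genome. A cluster of 7 unprocessed pseudogenes on chromosome 1 (24611535 to 24616197 of mm10) repeats the stretch from mt-Nd4 back to mt-Co1. Aligned to the GENCODE M21 transcripts, Gm28661, Gm10925, Gm28437, Gm28438 and Gm10222 were 100% identical to mt-Co2, mt-Atp6, mt-Co3, mt-Nd3 and mt-Nd4l over 98.3% to 99.9% of each gene. The opening 60 bases of mt-Co2 (chrM, 7013 to 7696, plus strand) and of its copy Gm28661 (chr1:24614885-24615565, minus strand) hold the same letters throughout. The start codon is in capitals.
mt-Co2: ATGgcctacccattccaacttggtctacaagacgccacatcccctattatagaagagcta
Gm28661: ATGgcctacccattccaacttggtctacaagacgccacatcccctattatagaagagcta

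mt-Nd4 and mt-Co1 are copied in part. Gm28439 matched 876 of the 1378 bases of mt-Nd4 at 100%, and Gm29216 matched 483 of the 1545 bases of mt-Co1, from position 1063 to 1545 of the transcript, at 99.8%. Their single difference was A1066T, with mt-Co1 first and positions counted from 1 at its start. mt-Nd1, mt-Nd2, mt-Nd5, mt-Nd6 and mt-Cytb had no copy in the cluster. The copies themselves held 16.4 to 62.4 FPKM alone for the 5 complete ones, beside 7.49 to 68.0 FPKM for the genes they repeat. Of the 7 copies, 3 were called lower (Gm10222, Gm28438 and Gm28437) and 0 higher. The sources used here do not give how reads that match both places were counted, and their part in the low levels was not tested.

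Among the 5 genes with complete copies only mt-Co2 was called, and that call rested on a single library. Its counts were 409, 1293 and 594 alone and 435, 457 and 537 in coculture, with the high value in alone replicate B. The change of -0.62 (SE 0.208, edgeR adjusted p = 0.0202) was lost in 5 of 17 alternatives. Without alone replicate B it was -0.04 (edgeR adjusted p = 0.768), and without cocultured replicate A it was -0.63 (adjusted p = 0.0812). mt-Co3 was called in 1 alternative, without cocultured replicate A (-0.29, edgeR adjusted p = 0.0346). mt-Co3, mt-Atp6, mt-Nd3 and mt-Nd4l gave log2 values of -0.15, -0.003, -0.34 and -0.17 with overlapping groups. With the 5 genes set aside, a choice made after seeing the data, the median of the mitochondrial members was -0.43.

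Nuclear members changed by smaller and more even amounts. Subunit genes of the 5 complexes numbered 77 tested, of which 50 fell and 0 rose, with a median log2 change of -0.19. Of the 52 nuclear members that fell, 3 were lower by under 10%, 41 by 10% to 20%, and 8 by 20% or more. The share called grew with level. Among nuclear members with at least 100 CPM alone, 26 of 32 fell, and among those with 50 to 100 CPM, 19 of 28 fell. Of members with 10 to 50 CPM, 7 of 26 fell, and of those below 10 CPM, 0 of 8. The share called lower among all genes tested also grew with level, through 3.04%, 12.1%, 23.2% and 34.4% from the lowest to the highest class, and was below that of the members in the 3 upper classes. Over all genes with at least 10 CPM alone, 21.1% were called lower and 16.5% higher, beside 52 lower and 0 higher of 86 nuclear members at that level.

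**Figure D3:**
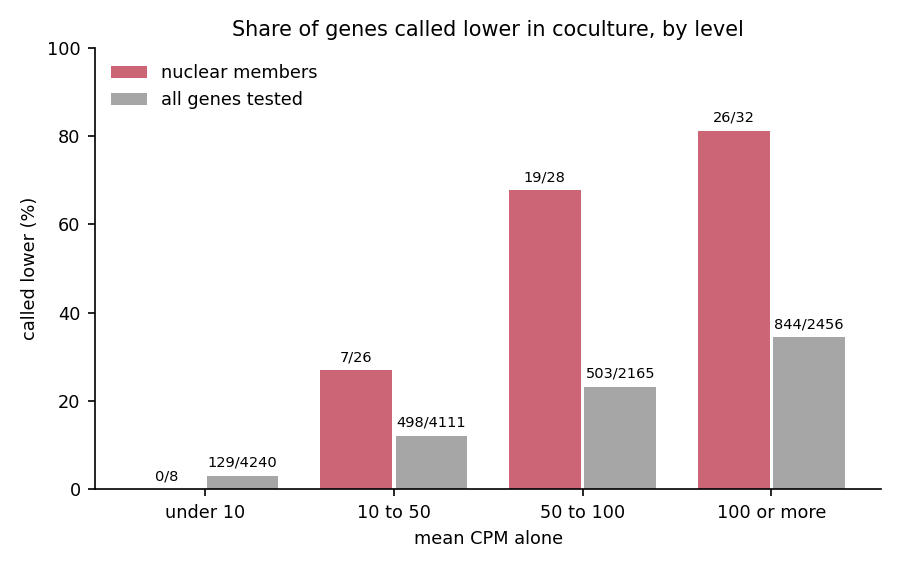
Percentage of genes called lower in coculture (edgeR adjusted p under 0.05) by mean CPM in cells alone, for the nuclear members and for all genes tested; the numbers over the bars are genes called over genes tested. The members' bar is the taller one in each class from 10 CPM upward, with 26 of 32 in the highest.

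Complex I takes electrons from NADH and is the largest assembly of the chain. Of its 44 nuclear members tested, 18 fell and 0 rose. The 7 core subunits carry the flavin and iron-sulfur centres, and 4 of them fell. Ndufs8, which binds a pair of iron-sulfur clusters (chromosome 19, 3908870 to 3912717, mm10), read 133, 142 and 133 CPM alone and 109, 109 and 97.9 CPM in coculture. All cocultured libraries were lower, and the fall was 22.8% (log2 -0.37, SE 0.052, edgeR adjusted p = 2.23e-06). Ndufs1, the largest subunit, fell by 15.7% and Ndufs7 by 13.2%, both without overlap. The call of Ndufs7 was lost without alone replicate A (edgeR adjusted p = 0.0573) and without cocultured replicate A (0.0502). Ndufv1, which binds the flavin and NADH, gave 118 ± 3.40 and 114 ± 5.61 CPM with overlapping groups. Ndufv1 was not called (edgeR adjusted p = 0.558).

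Accessory subunits surround that core and stabilise it. Of 29 tested, 13 fell and 0 rose, with a median of -0.17. Ndufb11 on the X chromosome, a subunit of the membrane arm, read 77.2, 74.2 and 79.5 CPM alone and 55.2, 65.6 and 60.6 CPM in coculture, a fall of 21.4%. Ndufa1, also X-linked, fell by 19.0%, Ndufb3 by 18.9%, Ndufc2 by 14.9% and Ndufa10, the most abundant of the role, by 14.2%, each without overlap. Ndufa12 was the most variable member, at 11.3, 39.2 and 7.15 CPM alone and 41.9, 11.8 and 9.58 CPM in coculture. Alone replicate B and cocultured replicate A were high, and its log2 value of 0.10 had an SE of 0.422. Without alone replicate B it was 1.19 (edgeR adjusted p = 0.0174), and without cocultured replicate A it was -0.86 (adjusted p = 0.15). The 8 assembly factors of complex I, which help to build it and do not stay in it, gave 1 call. Ndufaf8 read 11.3, 13.7 and 11.1 CPM alone and 9.03, 8.999 and 7.82 CPM in coculture, and its fall of 0.49 on the log2 scale (SE 0.135, edgeR adjusted p = 0.00548) was the greatest of any nuclear member called. Ndufaf4, the most abundant factor, stood at 52.8 ± 4.41 and 52.7 ± 1.63 CPM.

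Complex II, succinate dehydrogenase, belongs to the tricarboxylic acid cycle as well as to the chain, and all 4 of its subunits fell without overlap. Sdhb, the iron-sulfur subunit, read 125, 124 and 125 CPM alone and 105, 102 and 101 CPM in coculture. Its log2 change was -0.28 (SE 0.047, edgeR adjusted p = 3.12e-05). Sdhc, a membrane anchor, fell by 15.9%, Sdha, the flavoprotein, by 15.5%, and Sdhd, the other anchor, by 10.2%, a call lost without cocultured replicate C (edgeR adjusted p = 0.0551). None of the 4 assembly factors of complex II was called, and Sdhaf2, which helps to attach the flavin to Sdha, stood at 57.0 ± 3.19 and 58.4 ± 4.51 CPM. Over both complexes, 1 of 12 assembly factors fell, with a median of -0.06. They were less abundant, with a median of 15.01 CPM alone and a median SE of 0.115, against 88.3 CPM and 0.0575 for the subunits, and the difference between the 2 classes was not tested.

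Complex III moves electrons from ubiquinol to cytochrome c. Each of its 9 nuclear subunits was lower in all cocultured libraries than in any library of cells alone, and 7 were called. The small subunits moved most. Uqcr10 read 59.3, 56.1 and 57.1 CPM alone and 43.3, 49.2 and 43.1 CPM in coculture, a fall of 21.3%. Uqcr11 fell by 21.2%, Uqcrq by 20.1% and Uqcrh, the hinge protein, by 19.5% (edgeR adjusted p = 1.4e-05). Uqcrfs1, the Rieske iron-sulfur protein and a catalytic subunit, fell by 13.0%. The other catalytic nuclear subunit, Cyc1 (cytochrome c1), and the core protein Uqcrc1 gave -0.09 and -0.07 and were not called (adjusted p = 0.118 and 0.225). Cycs, the soluble carrier cytochrome c, read 162, 171 and 169 CPM alone and 146, 158 and 153 CPM in coculture. It fell by 9.06% (edgeR adjusted p = 0.023), a call lost in 5 of 17 alternatives. Without alone replicate B or C the adjusted p was 0.0839 and 0.0565, and without cocultured replicate A or C it was 0.107 and 0.057.

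Complex IV reduces oxygen. Of its 12 widely expressed nuclear subunits, 10 fell. Ndufa4, once assigned to complex I and now counted with complex IV, read 102, 113 and 112 CPM alone and 81.1, 82.8 and 83.7 CPM in coculture. It fell by 24.5% (log2 -0.41, SE 0.052, edgeR adjusted p = 5.94e-07). Cox7a2l, which takes part in supercomplexes of complexes III and IV, fell by 18.7%, Cox7b by 16.6%, Cox6c by 15.8% and Cox4i1, the most abundant of the role, by 12.3%. Cox8a fell by 12.04%, from 339 ± 3.92 to 298 ± 12.6 FPKM, and was the nuclear complex IV subunit with the highest level per length. Cox5a and Cox6a1 were not called, with log2 values of -0.12 and -0.09, and Cox6a1 was called without cocultured replicate B (-0.15, edgeR adjusted p = 0.0332). limma on FPKM called Cox5a with either pseudocount, at an adjusted p as low as 0.0451.

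Of 8 genes listed as tissue forms of complex IV subunits, 3 could be tested. Most of the 8 replace the common subunits in muscle, lung or testis. Cox4i2, a form of Cox4 best known from lung, held 9, 3 and 1 counts alone and 15, 13 and 29 in coculture. Its level was 0.285 ± 0.295 CPM alone and 1.19 ± 0.455 CPM in coculture (log2 2.13, SE 0.550, edgeR adjusted p = 0.00324). Since it passed the filter on low counts only through the cocultured libraries, it could be called in no other direction. Its log2 value was 3.28 without alone replicate A and 0.89 with limma on log2(FPKM + 1), whose pseudocount shrinks the change of low genes. Even so its level in coculture was 1.51 FPKM, beside 230.5 FPKM for Cox4i1. Cox7a1 and Cox6a2 had group means of 1.27 to 1.97 CPM and were not called. Cox6b2, Cox7b2 and Ndufa4l2 held a few counts, and Cox8b and Cox8c had 0 in every library.

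Complex V makes ATP, with a catalytic F1 head and a proton-driven Fo part. Of 17 members tested, 12 fell, 0 rose, and all 17 were below 0. Atp5b, the catalytic beta subunit and the most abundant nuclear member, read 1900.0, 1839 and 1769 CPM alone and 1665, 1711 and 1702 CPM in coculture. It fell by 7.80%, the least of the nuclear members called (log2 -0.12, SE 0.034, edgeR adjusted p = 0.00743), and limma did not call it (adjusted p of 0.0513 and 0.0537). Atp5a1, the alpha subunit, fell by 11.3%, Atp5d (delta) by 13.9% and Atp5e (epsilon) by 16.1%. In the Fo part Atp5l, subunit g, read 88.2, 85.1 and 85.3 CPM alone and 68.3, 68.1 and 66.5 CPM in coculture and fell by 21.5% (edgeR adjusted p = 7.25e-06). Subunit c, which forms the rotating ring, is encoded by 3 genes for the same mature protein. Atp5g3 stood at 135 ± 6.37 FPKM alone, Atp5g2 at 87.2 ± 3.72 and Atp5g1 at 14.1 ± 1.86. Atp5g3 fell by 10.7% and Atp5g2 by 13.3%, whereas Atp5g1 gave -0.14 with overlapping groups and was called without alone replicate C (-0.23, edgeR adjusted p = 0.0131).

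Summed over each complex, nuclear levels were lower by similar amounts, and mitochondrial ones were not. The nuclear members of complex I summed to 2521 ± 33.2 CPM alone and 2257 ± 29.4 in coculture (10.5% lower), and those of complexes II, III, IV and V were lower by 13.7%, 11.6%, 13.0% and 9.76%. The mitochondrial members of complex I summed to 5954 ± 368 and 4517 ± 110.2 CPM, or 24.1% lower. The single mitochondrial gene of complex III was lower by 26.2% in mean CPM, those of complex IV by 6.41% and those of complex V by 0.407%. The sums of mitochondrial complexes IV and V overlapped between the groups, and all others did not, as the plot of summed levels shows.

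**Figure D4:**
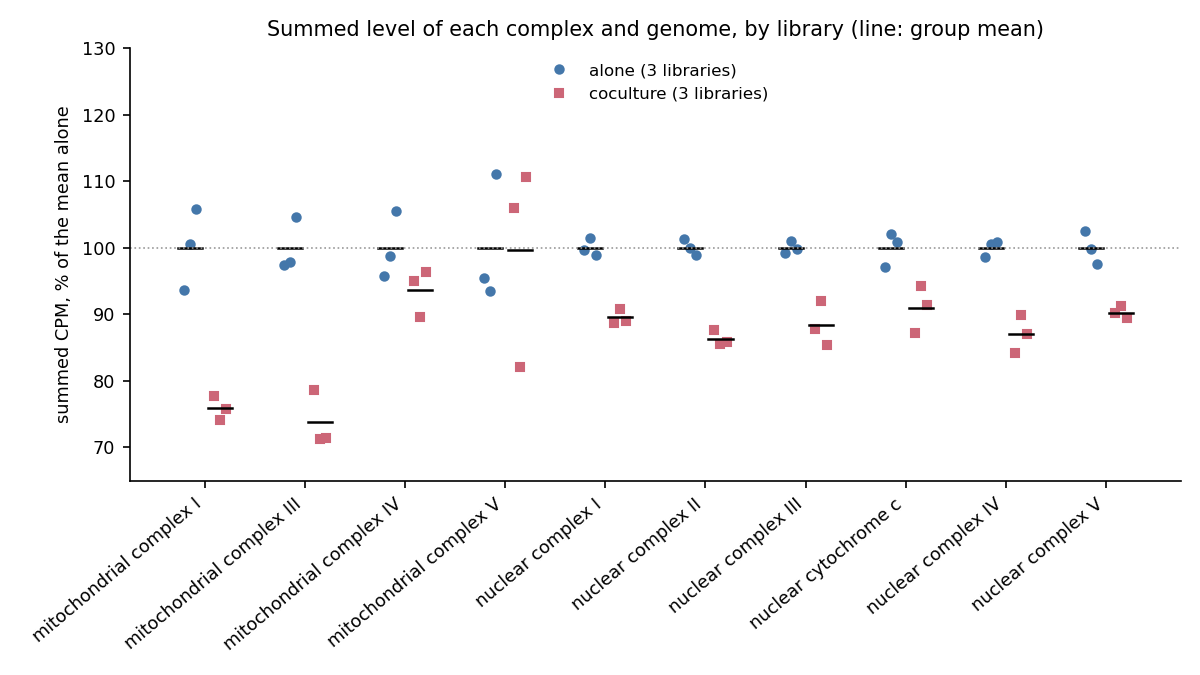
Summed CPM of the members of each complex, split by genome, in each of the 6 libraries, as a percentage of the mean of the 3 libraries of cells alone; short lines are group means, and the axis does not start at 0. Mitochondrial complexes I and III lie lowest in coculture, the nuclear sums lie below every library of cells alone, and mitochondrial complexes IV and V overlap.

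Promoters were read for motifs of factors known to act on respiratory chain genes, from 250 bases before to 50 after each start in the RefSeq table (GRCm38.p6). It held 82 of the 100 nuclear members and 27025 genes in all, and both strands were searched. The NRF1 motif GCGCATGCG stood in 11 of the 82 (13.4%) and in 1.95% of all genes. CCGGAAG, bound by ETS factors such as GABP, stood in 21 (25.6%, against 9.93%), and AAGATGGC of YY1 in 11 (13.4%, against 3.19%). TCAAGGTCA of ERRalpha stood in 2 (2.44%, against 0.466%), GGGCGG of SP1 in 40 (48.8%, against 38.2%) and CCAAT in 36 (43.9%, against 41.1%). Members that fell and members not called both held these motifs, apart from TCAAGGTCA. That motif stood in 2 of 42 that fell and 0 of 36 not called. CCGGAAG stood in 14 of 42 that fell and 7 of 36 not called, and GCGCATGCG in 5 and 6. GGGCGG was less frequent among those that fell, 15 of 42 against 23 of 36, a difference that was not tested. A match describes the letters and is no evidence of binding.

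The last 120 bases before the start are shown for 5 members that fell, as examples of these motifs, read 5′ to 3′ on the gene's strand with matches to the NRF1, ETS, YY1 and ERRalpha motifs in capitals. All 5 genes lie on the minus strand, Cycs at chr6:50566570-50566689, Atp5g2 at chr15:102671048-102671167, Atp5j at chr16:84834977-84835096, Uqcrh at chr4:116075071-116075190 and Uqcr11 at chr10:80406822-80406941. Cycs and Atp5g2 hold the NRF1 motif, Uqcrh and Uqcr11 the ETS motif, and Atp5j, an Fo subunit that fell by 0.18 (edgeR adjusted p = 0.00668), those of YY1 and ETS. The table holds a further start of Atp5j, whose promoter has none of these 4 motifs.
Cycs: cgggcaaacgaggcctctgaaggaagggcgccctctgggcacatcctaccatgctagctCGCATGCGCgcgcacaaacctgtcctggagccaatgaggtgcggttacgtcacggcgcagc
Atp5g2: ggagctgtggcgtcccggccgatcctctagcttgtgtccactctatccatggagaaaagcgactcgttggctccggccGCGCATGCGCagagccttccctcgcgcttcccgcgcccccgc
Atp5j: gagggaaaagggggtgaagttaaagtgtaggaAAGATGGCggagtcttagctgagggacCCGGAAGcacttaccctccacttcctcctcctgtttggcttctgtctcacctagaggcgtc
Uqcrh: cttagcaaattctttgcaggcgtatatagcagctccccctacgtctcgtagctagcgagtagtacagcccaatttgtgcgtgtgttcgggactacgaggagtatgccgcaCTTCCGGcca
Uqcr11: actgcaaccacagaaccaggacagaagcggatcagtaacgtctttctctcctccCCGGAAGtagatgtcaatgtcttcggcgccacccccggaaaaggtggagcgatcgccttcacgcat

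Genes around the chain that are no members were counted in the same fit, which called 15.2% of all genes tested lower and 21.7% higher. Among genes with at least 10 CPM alone these shares were 21.1% and 16.5%. Of 18 enzymes of the tricarboxylic acid cycle and pyruvate dehydrogenase, 9 fell and 0 rose, with a median of -0.12. Idh2, the mitochondrial NADP-dependent isocitrate dehydrogenase, fell from 209 ± 6.45 to 161 ± 2.23 CPM, and Idh3g, a regulatory subunit of the NAD-dependent enzyme, from 162 ± 6.18 to 124 ± 3.45 CPM. Pdhb, of pyruvate dehydrogenase, fell by 0.35 on the log2 scale (edgeR adjusted p = 1.39e-06). Of 7 carriers and VDAC channels tested, the carriers Slc25a3, Slc25a5 and Ucp2 fell and 0 rose. These carriers move phosphate, adenine nucleotides and other metabolites across the inner membrane. The carrier Slc25a4 and the channels Vdac1, Vdac2 and Vdac3 were not called, with log2 values of 0.04, 0.02, 0.04 and 0.09. Of 33 further assembly factors of the chain, 2 fell and 3 rose, with a median of -0.06. Surf1 and Cox19, which serve complex IV, rose by 0.31 and 0.32, and Foxred1, which serves complex I, fell by 0.20. Cox17, the remaining factor that rose, had the largest rise, 0.86 (edgeR adjusted p = 0.00784), from 2.05 ± 0.286 to 3.73 ± 0.739 CPM without overlap. It lay under the 5 CPM set for naming, and its call was not followed over the alternatives. Leaving out 1 library ended the calls of Surf1, Cox19 and Foxred1, with edgeR adjusted p up to 0.055 for Surf1 (cocultured replicate C), 0.0911 for Cox19 (alone or cocultured replicate A) and 0.0987 for Foxred1 (alone replicate B or C, cocultured replicate A or B).

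Of 20 factors that copy, transcribe or process mitochondrial DNA and RNA, 5 fell and 1 rose. The share that fell was near the 21.1% called lower among all genes with at least 10 CPM alone, where 16.5% were called higher. Tfam, which packages and transcribes mitochondrial DNA, fell from 69.6 ± 0.916 to 62.0 ± 0.968 CPM (edgeR adjusted p = 0.0221). Lrpprc, which stabilises mitochondrial messenger RNA, fell from 216 ± 4.40 to 189 ± 3.62 CPM (edgeR adjusted p = 0.0009). Tfb2m, Twnk and Supv3l1 fell by 0.25, 0.20 and 0.24 on the log2 scale, and Pnpt1, an RNA-degrading enzyme, rose by 0.18. Calls of Tfam, Lrpprc and Pnpt1 were not followed over the alternatives, so their stability is not known. The calls of Tfb2m and Twnk were lost without alone replicate A (log2 -0.22 and -0.11, edgeR adjusted p = 0.0807 and 0.266) and without cocultured replicate A or C, that of Tfb2m also without alone replicate C and that of Twnk without cocultured replicate B. Of 10 nuclear regulators of the chain's transcription, Nfe2l2 fell by 0.26, and Myc rose from 1.61 ± 0.403 to 29.7 ± 2.10 CPM (log2 4.19, SE 0.152, edgeR adjusted p = 2.52e-17). Ppargc1a, the coactivator PGC-1alpha, had no count in cells alone and 2.80 ± 0.364 CPM in coculture, so its direction was fixed by the filter. Nrf1, Gabpa and Esrra were not called, with log2 values of 0.02, -0.10 and 0.12.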

How the data were processed

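RNA was measured in 3 libraries of RAW264.7 cells grown alone and 3 of cocultured cells. Per the file headers, the authors deposited raw gene counts in one table and FPKM values in another. Builds and tools named in the submitters' processing notes are mm10, edgeR 3.22.5, DESeq2 1.20.0, featureCounts 1.5.0-p3 and HISAT2 2.0.5, with no statement of which step used which. The sources used here do not give the strand setting or the handling of reads with several matches, and counts of overlapping genes and of near-identical copies are uncertain. Of 14 pseudogenes named after members, 8 held counts, 839 in all 6 libraries together, of which Ndufab1-ps took 680. Deposited FPKM values equalled counts over length and library total times a factor of 0.996 to 1.004, and 0 columns belonged to other samples.

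From the counts, changes were tested over the whole table with edgeR 4.0.16 (R 4.3.3), using its quasi-likelihood F test (TMM scaling, filterByExpr, group term only, Benjamini-Hochberg adjusted p under 0.05), and SE is the absolute log2 change over the square root of F. The procedure was tested on simulated data. Alternatives were DESeq2 1.42.0 size factors and Wald test, upper quartile scaling, scaling without mitochondrial genes, other filters, protein-coding genes only, a replicate block, each library left out, and limma 3.58.1 on log2(FPKM + 1) and log2(FPKM + 0.1). Counts of replicate libraries were set against each other, and all pairs differed beyond sampling noise (chi-square over degrees of freedom between 3.07 and 4.70). Coordinates of 106 of the 113 members and of 7 of 7 copies matched GENCODE M21 (GRCm38, the assembly of mm10), whose transcripts were aligned with Biopython 1.88. Promoters were matched by symbol or identifier. Ndufa2, Ndufb9, Ndufaf6, Ndufs1, Sdhc, Cyc1, Uqcrb, Uqcrc2, Uqcrq, Cox4i1, Cox6c, Cox4i2, Cox6a2, Cox8c, Ndufa4l2, Atp5a1 and Atp5mpl were among those without a match. Fastkd4 was listed among the expression factors and not found by that symbol.

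The members and lists were chosen with earlier results of these data known. The rule for named genes took every mitochondrial member, in each nuclear role up to 4 called members with at least 5 CPM and the largest changes, any called against its role and the most abundant one, tissue forms with their partners, the 3 subunit c genes, and up to 3 genes per related list. Ndufa12, Ndufv1, Uqcrfs1, Cyc1, Cox5a, Atp5j, Tfam, Lrpprc, Pnpt1, Ppargc1a, Nrf1, Gabpa and Esrra were named after their values were seen. The same holds for Cox17, Slc25a4, Vdac1, Vdac2 and Vdac3. A gene that the rule took is not reported here.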

Additional observations from a re-analysis of the deposited data

How the results depend on the processing

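Over 17 alternatives, members called lower numbered 48 to 61 and the median of the nuclear members stayed below 0. Of the 60 members called lower, 38 kept their call in every alternative, and 88 of 106 members had a log2 change below 0 in each alternative that tested them. The count of members called higher was 0 with a filter of at least 1 CPM in at least 3 libraries and 0 with a mean of at least 10 CPM alone, which both remove Cox4i2, and it ran from 1 to 2 with each library left out. The added call, without alone replicate B, was Ndufa12. With a mean of at least 10 CPM alone, 8730 genes were tested, of which 1657 were called higher and 1430 lower. The nuclear median there was -0.15. At that level the main fit had called 1439 higher and 1845 lower of 8732 genes, with a nuclear median of -0.18. Scaling was computed anew after each filter, and its part in this shift was not tested. With each library left out the nuclear median ran from -0.20 to -0.16 and the mitochondrial median from -0.41 to -0.29. Whether the replicate letters pair libraries across the groups is not stated in the labels. Deviations from the group means correlated at 0.0034, 0.0214 and 0.0392 for the same letter and at -0.0344 to 0.0138 for different letters. With 3 libraries per group these values cannot settle it. The fit with the replicate letter as a block called 60 members lower and 1 higher, and 1951 and 2815 of all genes.

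Some members not called changed sign, and the cause was not tested. mt-Atp6 gave 0.00398 with at least 1 CPM in at least 3 libraries and 0.0236 with at least 10 CPM alone, and Ndufaf4 gave 0.00277 and 0.0226 there and 0.000788 and 0.00103 with limma on log2(FPKM + 1) and log2(FPKM + 0.1). With each library left out, log2 values ran from -0.0866 to 0.116 for mt-Atp6, from -0.86 to 1.19 for Ndufa12, from -0.0655 to 0.0396 for Ndufaf4 and from -0.0346 to 0.0757 for Sdhaf2. At this depth the median SE of a log2 change was 0.0467 for nuclear members with at least 100 CPM alone and 0.0831 for those with 10 to 50 CPM.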
